A study of Syntrichia ruralis with 8 samples.

Results

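Transcripts of slow-dried and of rapid-dried, rehydrated gametophytes of the moss Tortula ruralis were compared in total RNA. Gametophytes are the leafy haploid plants, and this species is also named Syntrichia ruralis. The comparison took the 4 total RNA arrays of the 8 arrays in the study, chosen by the treatment and RNA fraction in their labels. There were 2 arrays of slow-dried plants and 2 of rapid-dried, rehydrated plants, and all 768 clones on the arrays entered it. Each array is a 2-colour cDNA array that sets poly(A) RNA of treated plants in 1 dye against that of plants kept hydrated in the other, with the dyes exchanged between the 2 arrays of a group. Replicate 1 carried the treated RNA in Cy3 and replicate 2 in Cy5. The quantity compared is the log2 of treated signal over hydrated signal, slow-dried minus rapid-dried rehydrated. Hydrated plants are thus the reference on both sides, measured separately on each array.

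Slow-dried plants had been hydrated for 48 h, then dried in air of 66% relative humidity at 20 °C for 24 h, and reached air-dry weight, about 20% of fresh weight, within 6 h. They were frozen dry. Rapid-dried plants had also been hydrated for 48 h, were dried over silica gel, and were frozen after 2 h of rewetting. Drying rate and rehydration therefore differ together, and their parts in any difference cannot be told apart. The plants were collected in the field and stored dry, and each RNA preparation pooled many of them. The design text speaks of separate RNA preparations for a group's dye-swapped arrays, and nothing says they came from separate drying runs, so the p-values below measure the spread between arrays, which may be partly technical.

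Tortula ruralis loses nearly all its cell water without dying and regains photosynthesis and protein synthesis soon after rewetting. Mosses of this kind are described as protecting themselves in part with proteins already present when they dry, such as late embryogenesis abundant (LEA) proteins and antioxidant enzymes, and in part by repair on rewetting. Early light-inducible proteins (ELIPs) sit in the thylakoid membrane, bind pigment and are known from plants under excess light or drying.

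The library behind the clones was made by subtraction and does not sample the genome evenly, and 209 clones carry an annotation while 559 carry none. On the total RNA arrays the treated channel was well above background for 82.6 to 95.2% of clones. In the hydrated channel the share was between 71.2 and 86.1%, except on replicate 1 of the rapid-dried rehydrated plants, where it was 42.4%. Ratios are given relative to the typical clone of their array, which the normalization sets at 0. Below 0 therefore means below the typical clone, which need not be a lower amount than in hydrated tissue. Fewer cells of a type and less RNA per cell cannot be told apart in such bulk RNA, and no marker of a cell type or tissue was available to check the label.

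Relative to the typical clone, transcripts of both ELIPs, dehydroascorbate reductase, lipoxygenase-1 and phenylalanine ammonia-lyase were called higher in slow-dried than in rapid-dried rehydrated plants. Those of photosystem I subunit III, carbonic anhydrase, microsomal glutathione S-transferase 3, a thioredoxin h, Hsp70 and trehalase were called lower. With the total RNA arrays alone, ELIPA, dehydroascorbate reductase, lipoxygenase-1, phenylalanine ammonia-lyase and trehalase did not pass. By limma's moderated test over all 8 arrays, with Benjamini-Hochberg adjustment over the 768 clones and calls at an adjusted p under 0.05, 49 clones were higher in slow-dried plants (6.38%) and 87 were lower (11.3%). An unadjusted p under 0.05 held for 128 higher and 159 lower clones. The clones called higher differed by a log2 of 0.76 to 2.39 (median 1.14), and the clones called lower by -0.73 to -3.33 (median -1.28). The median of all clones was -0.03. Among the annotated clones 12 were called higher and 32 lower.

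The 2 sides of the comparison contributed unequally. For the 49 higher clones the median log2 ratio over hydrated tissue was 0.97 in slow-dried plants and -0.19 in rehydrated ones. For the 87 lower clones it was -0.91 in slow-dried plants and 0.48 in rehydrated ones. Clones called lower include 13 that were called below 0 after slow drying and above 0 after rehydration, while 5 of the higher clones were called the opposite way round. These clones were selected by the difference of the same ratios, which favours opposite sides of 0. The share over all clones was not counted, and the 0 is that of the typical clone.

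**Figure D1:**
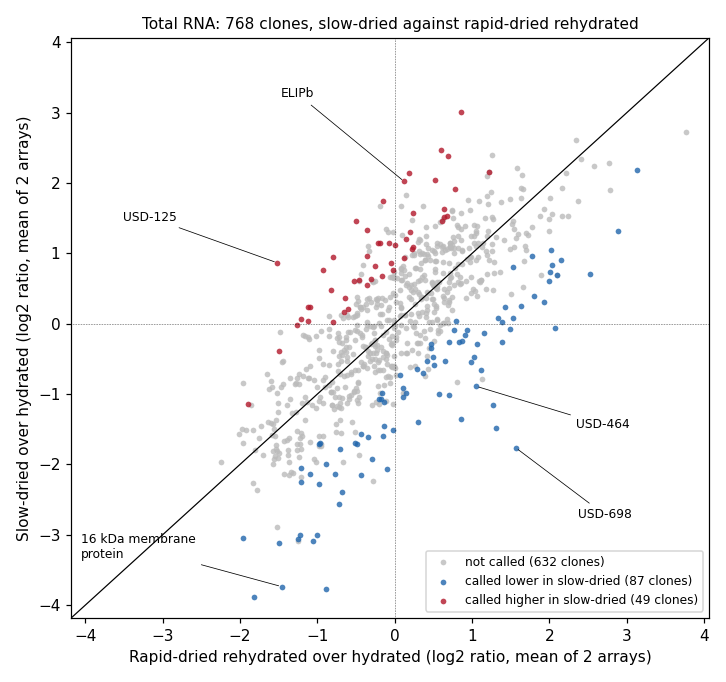
Each point is 1 of 768 clones, with its log2 ratio over hydrated tissue in rapid-dried rehydrated plants on the horizontal axis and in slow-dried plants on the vertical axis, both as means of 2 arrays, and the line marks equal ratios. The 49 clones called higher (red) lie above the line and the 87 called lower (blue) below it, with USD-698 and the 16 kDa membrane protein far below.

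How many clones pass depends on the spread and the scale used. The residual SD between the arrays of a group was 0.46 in total RNA and 0.22 in polysomal RNA, so the pooled spread is narrower than that of the total RNA arrays themselves. With the total RNA arrays alone 19 clones were called higher and 40 lower, of which 15 and 39 were among those above. With each RNA fraction weighted by its own spread, an alternative chosen after seeing the data, 15 were called higher and 25 lower. In the authors' ratio table, tested in the same way, 0 clones passed in either direction (72 higher and 80 lower at an unadjusted p under 0.05). In it 49 of the 49 higher and 86 of the 87 lower clones kept their sign. These ratios come from the same arrays, so the kept signs are no separate evidence. Of the 52 called clones that the naming rule selects, the authors' ratios, median centred, were over 1.5 times smaller in 18 and larger in 9. Of the same 52 clones, 23 stayed called whichever 1 of the 4 arrays was left out, and 6 were called in none of those 4 fits.

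A second scale sets the mean of 4 ribosomal protein control clones at 0 on every array. It raises each difference by 0.30, since their mean was lower in slow-dried plants relative to the typical clone. The files name these clones L17, S14, S16 and S3, while the design text names L23 and L15 in place of L17 and S3, so the identity of 2 of the 4 is uncertain. On this control scale 56 clones were called higher (7.29%) and 33 lower (4.3%), and 36 and 30 clones were called on both scales. The control clones did not move as one. L17 was lower by -1.07 ± 0.20 (adjusted p = 0.0168 by limma), while S14 stood at -0.53 ± 0.26, S16 at -0.03 ± 0.42 and S3 at 0.41 ± 0.24, none of which passed.

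In 210 clones (27.3%) both slow-dried arrays lay above both rehydrated ones, and in 241 clones (31.4%) both lay below. All 136 called clones are among these. The log2 ratios of the 2 arrays of a group correlated at r = 0.87 across clones for slow drying and at 0.78 for rehydration, and arrays of different groups at 0.63 to 0.68. These are descriptions across clones, which are set against hydrated plants on every array and are not independent replicates.

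Of the light-protection genes, both annotated ELIP clones were called higher in slow-dried plants. ELIPb (USD-305) had log2 ratios over hydrated tissue of 1.09 and 2.95 on the slow-dried arrays and of 0.16 and 0.08 on the rehydrated arrays. The difference was 1.90 ± 0.47 (SE of the limma fit, n = 2 arrays per group here and below, adjusted p = 0.0410), and it passed with the total RNA arrays alone (adjusted p = 0.0477) and on the control scale (2.20). It rested on replicate 2 of the slow-dried plants for its size. Without that array it was 1.01 (adjusted p = 0.0587) and without replicate 1 2.79, and it was not called without replicate 2 of the rehydrated plants either (1.50, adjusted p = 0.120). In the authors' ratios it was 0.099 after median centring and 0.0016 as deposited, and did not pass. Both slow-dried arrays lay above both rehydrated ones, with a wide gap between the slow-dried arrays themselves. In the rehydrated pair ELIPb was not well above background in the hydrated channel, so its ratio there is uncertain. The treated channel alone differed by 1.75 and the hydrated channel by -0.15. ELIPA (USD-274) had ratios of 1.35 and 1.56 after slow drying and of 0.80 and 0.43 after rehydration. Its difference of 0.85 ± 0.22 (adjusted p = 0.0441 by limma) passed neither with the total RNA arrays alone (adjusted p = 0.178) nor on the control scale (1.15, adjusted p = 0.0706). All 4 ratios of ELIPA were above 0.

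Of 5 clones for photosynthesis and chloroplast import, 2 were called lower and 0 higher, and 2 of the 5 lay above 0 (median -1.62, against -0.03 over all clones). For this and the later lists, the shares over all clones are 6.38% called higher and 11.3% called lower. No list was tested as a set. Photosystem I subunit III (USD-591), which docks plastocyanin to the photosystem, had ratios of -2.70 and -3.30 after slow drying and of -0.92 and -1.09 after rehydration. The difference was -1.99 ± 0.30 (adjusted p = 0.00983 by limma), a 3.98-fold lower level relative to the typical clone. Chloroplast carbonic anhydrase (USD-156), which interconverts carbon dioxide and bicarbonate, had ratios of -2.97 and -3.25 after slow drying and of -1.70 and -1.29 after rehydration, a difference of -1.62 ± 0.26 (adjusted p = 0.0103 by limma). In both clones all 4 arrays were below 0 and the groups did not overlap, and both differences also passed on the control scale and with the total RNA arrays alone.

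A chlorophyll a/b-binding antenna protein (USD-180) had ratios of -2.15 and -4.03 after slow drying and of -1.41 and -1.10 after rehydration. Its difference of -1.84 ± 0.56 did not pass (adjusted p = 0.0689 by limma), though it did on the control scale (-1.54, adjusted p = 0.0277). The groups did not overlap. The other 2 clones of the list stood at 0.94, and neither passed. They were Lil3, a light-harvesting-like protein tied in Arabidopsis to chlorophyll synthesis, and Toc125 of the chloroplast import machinery, and Lil3 passed on the control scale (1.24, adjusted p = 0.0436). Of 3 photorespiration clones none was called. Glycolate oxidase (USD-422), which makes glyoxylate and hydrogen peroxide in peroxisomes, had ratios of 1.76 and 0.93 after slow drying and of 0.46 and -0.68 after rehydration. Its difference was 1.45 ± 0.48 (adjusted p = 0.0867 by limma), the groups did not overlap, and it passed on the control scale (1.76) and with the total RNA arrays alone. The hydrated channel was not well above background on the slow-dried arrays for glycolate oxidase, on the rehydrated arrays for catalase, and on either pair for Toc125. Catalase, which breaks down hydrogen peroxide, differed by -0.07 ± 0.25. GLU2, a ferredoxin-dependent glutamate synthase, differed by 0.28 ± 0.27.

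Antioxidant and redox enzymes split. Of 11 clones 2 were called higher and 2 lower (median 0.11). Dehydroascorbate reductase (USD-154), which regenerates ascorbate with glutathione, had ratios of 0.81 and 1.48 after slow drying and of 0.02 and -0.15 after rehydration. It differed by 1.21 ± 0.26 (adjusted p = 0.0283 by limma), and the treated channel alone by 1.44. A second clone of that annotation, USD-202, differed by 0.61 ± 0.23 and did not pass (adjusted p = 0.113). A clone of the lactoylglutathione lyase family (USD-102), a family that detoxifies methylglyoxal, had ratios of 1.22 and 1.02 after slow drying and of 0.14 and -0.14 after rehydration. It differed by 1.12 ± 0.24 (adjusted p = 0.0257 by limma), but its treated channel alone differed by -0.22 and its hydrated channel by -1.34. The hydrated channel difference did not pass (adjusted p = 0.212 by limma), and which channel carries the difference was not tested. The other lactoylglutathione lyase clone, USD-190, stood at -0.78 ± 0.34, and USD-104, a glyoxalase and dioxygenase domain protein, at -0.66 ± 0.20, and neither passed.

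Among the clones called lower, microsomal glutathione S-transferase 3 (USD-460), a membrane enzyme that conjugates glutathione, had ratios of -3.21 and -2.96 after slow drying and of -1.36 and -0.74 after rehydration. Its difference of -2.04 ± 0.22 (adjusted p = 0.00516 by limma) is 4.10-fold. The groups did not overlap, and the difference was of like size in polysomal RNA (-1.81, adjusted p = 0.0152). Thioredoxin h (USD-658), a reductant of protein disulfides, had ratios of -1.26 and -2.87 after slow drying and of -0.12 and -0.10 after rehydration, so that the slow-dried arrays were low and far apart and the rehydrated ones near 0. Its difference was -1.96 ± 0.43 (adjusted p = 0.0301 by limma), and -1.15 without replicate 2 of the slow-dried plants (adjusted p = 0.0462). Neither aldehyde dehydrogenase clone passed, with Aldh21A1, an enzyme described from this moss, at 0.41 ± 0.20 and the mitochondrial one at 0.21 ± 0.20.

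LEA proteins are named for accumulating in maturing seeds, and rehydrins are transcripts described from this moss. Of 5 LEA, dehydrin and desiccation clones none was called (median 0.14). The dehydrin LTI30/XERO2 (USD-107) had ratios of 1.13 and 1.85 after slow drying and of 0.30 and 0.94 after rehydration, and its difference of 0.87 ± 0.25 just missed (adjusted p = 0.0626 by limma). The slow-dried arrays lay above the rehydrated ones. The Lea protein clones differed by 0.26 ± 0.24 (USD-161), -0.14 ± 0.18 (USD-397) and 0.01 ± 0.25 (USD-165), and the desiccation-related protein pcc13-62 by 0.14 ± 0.24. Both sides were high for USD-161, with ratios of 0.95 and 1.67 after slow drying and of 1.05 and 1.06 after rehydration, and the groups overlapped.

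Of 8 rehydrins 1 was called lower and 0 higher (median 0.13). Tr-416, which the design text lists as a control lowered in earlier northern blots, had ratios of -2.73 and -3.39 after slow drying and of -1.36 and -1.15 after rehydration. It differed by -1.80 ± 0.25 (adjusted p = 0.00846 by limma) and was lower in polysomal RNA too (-1.62, adjusted p = 0.0281). Tr-217, listed in the same way, differed by -0.79 ± 0.26 and did not pass (adjusted p = 0.0867). The other named rehydrins lay between 0.23 and 0.62. The 2 clones of Tr-288 stood at 0.62 ± 0.43 and 0.33 ± 0.21, Tr-421 at 0.27 ± 0.19 and Tr-418 at 0.23 ± 0.20.

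Of 12 clones annotated for abscisic acid, dehydration, cold or senescence, 4 were called lower in slow-dried plants and 0 higher (median -0.35). All 4 were above 0 after rehydration. ERD4 (USD-514), named in Arabidopsis as an early response to dehydration, had ratios of -0.26 and -0.69 after slow drying and of 1.07 and 0.99 after rehydration. It differed by -1.50 ± 0.24 (adjusted p = 0.0114 by limma). A second ERD4 clone, USD-81, gave 0.72 ± 0.51 and did not pass, with both channels of the rehydrated pair not well above background. A low temperature-induced protein (USD-693) differed by -1.06 ± 0.24, a GRAM domain abscisic acid-responsive protein (USD-411) by -0.98 ± 0.19 and FIP1 (USD-559), a GRAM domain relative, by -0.77 ± 0.18. None of the 4 passed on the control scale, and with the total RNA arrays alone ERD4 did (adjusted p = 0.0367) while the others did not. Senescence-associated protein 12 (USD-38) had ratios of 0.24 and 1.13 after slow drying and of 1.94 and 2.25 after rehydration. Its difference of -1.41 ± 0.57 did not pass (adjusted p = 0.130), but did with the total RNA arrays alone (adjusted p = 0.0477).

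**Figure D2:**
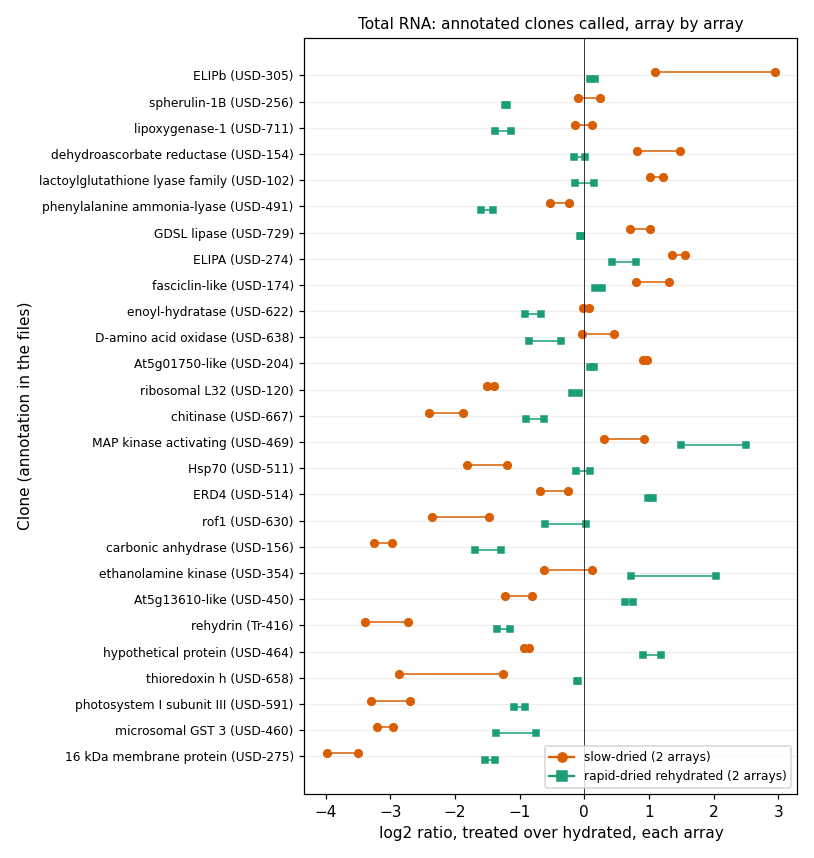
The 27 annotated clones with the largest called differences, with 1 row per clone and the log2 ratio over hydrated tissue of each array on the horizontal axis, circles for the 2 slow-dried arrays and squares for the 2 rapid-dried rehydrated arrays. In every row the 2 circles lie on 1 side of both squares, which the rule for choosing these clones required. The circles lie far apart for ELIPb (1.09 and 2.95) and thioredoxin h (-1.26 and -2.87).

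Of 12 protein folding and breakdown clones 3 were called lower and 0 higher (median -0.32), while 5 lay above 0. Over all clones 11.3% were called lower. The heat shock cognate Hsp70 (USD-511), a chaperone, had ratios of -1.20 and -1.82 after slow drying and of -0.13 and 0.08 after rehydration. It differed by -1.49 ± 0.26 (adjusted p = 0.0139 by limma) and was also lower in polysomal RNA (-1.30, adjusted p = 0.0475). The peptidyl-prolyl isomerase rof1 (USD-630), which helps proteins fold around proline, had ratios of -1.48 and -2.36 after slow drying and of 0.02 and -0.62 after rehydration, a difference of -1.62 ± 0.30 (adjusted p = 0.0156 by limma). In both clones the rehydrated arrays were near the typical clone or below it, and the slow-dried ones lower still. A cystatin (USD-191), an inhibitor of cysteine proteases, differed by -0.98 ± 0.21 (adjusted p = 0.0288), with more of it in the hydrated channel (0.53) than in the treated one (-0.45). BiP 3, a chaperone of the endoplasmic reticulum, differed by -0.65 ± 0.40 and did not pass.

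Of 22 ribosomal protein clones 5 were called lower and 0 higher, and 19 of 22 lay below 0 on the scale set by the typical clone (median -0.46). On the control scale 0 were called lower and 1 higher (median -0.16), and this list holds the 4 clones that set that scale. Without them 4 of 18 were called lower and 0 on the control scale. L32 (USD-120) had ratios of -1.50 and -1.40 after slow drying and of -0.18 and -0.08 after rehydration. Its difference was -1.32 ± 0.21 (adjusted p = 0.0103 by limma, and -1.02, adjusted p = 0.0952, on the control scale). The arrays of each group lay close together and the groups apart. An L5 clone (USD-213) differed by -1.19 ± 0.19, with ratios of -0.53 and -0.53 after slow drying and of 0.76 and 0.55 after rehydration. L35 differed by -0.84 ± 0.22 and L28 by -0.73 ± 0.19, and both lay below 0 on all 4 arrays. In the authors' ratios, median centred, L32 (-0.13), L35 (-0.081) and L28 (-0.022) were close to 0. A second L5 clone (USD-282) was the member higher on the control scale (1.28, adjusted p = 0.0358). It stood at 0.98 ± 0.30 on the typical-clone scale, opposite to USD-213. Of 3 translation factors none passed, with elongation factor 2, which moves the ribosome along, at -0.61 ± 0.28, an eIF4-gamma domain protein at 0.52 ± 0.24 and elongation factor 1 alpha, which brings aminoacyl-tRNA to it, at -0.20 ± 0.19.

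Of 14 clones for sugar metabolism and the cell wall 3 were called lower and 1 higher (median -0.28), and 0 on the control scale. Trehalase (USD-539), which splits trehalose into glucose, had ratios of -0.23 and -0.25 after slow drying and of 0.88 and 0.86 after rehydration. It differed by -1.11 ± 0.18 (adjusted p = 0.0114 by limma). A second trehalase clone, USD-578, gave nearly the same difference, -1.08 ± 0.37, with a wider spread and no call (adjusted p = 0.0931). A chitinase (USD-667), which cleaves chitin, differed by -1.37 ± 0.25, and 1 of 3 clones of glyceraldehyde-3-phosphate dehydrogenase, a glycolytic enzyme, by -0.82 ± 0.22 (USD-462). A fasciclin-like protein (USD-174), of a family found at the cell surface, was higher by 0.84 ± 0.22 (adjusted p = 0.0449). The flavoprotein subunit of succinate dehydrogenase (USD-421), of the mitochondrial respiratory chain, had ratios of 1.31 and 0.51 after slow drying and of 2.34 and 1.97 after rehydration. Its difference of -1.24 ± 0.22 (adjusted p = 0.0156 by limma) lay between groups that both stood above 0. It did not pass on the control scale (-0.94, adjusted p = 0.114) or with the total RNA arrays alone (adjusted p = 0.0616).

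Of 12 clones of lipid, oxylipin and ethanolamine metabolism 3 were called higher and 1 lower (median -0.16). Lipoxygenase-1 (USD-711), which oxygenates polyunsaturated fatty acids, had ratios of 0.12 and -0.15 after slow drying and of -1.14 and -1.39 after rehydration. It differed by 1.25 ± 0.18 (adjusted p = 0.00898 by limma), from near the level of the typical clone to below it. It passed on the control scale (1.55), but not with the total RNA arrays alone (adjusted p = 0.0564), and in polysomal RNA it stood at -0.18. An enoyl-hydratase/isomerase family clone (USD-622), of a family that acts in fatty acid breakdown, was higher by 0.82 ± 0.19 (adjusted p = 0.0325). A GDSL-motif lipase clone (USD-729) was higher by 0.91 ± 0.21, but with -0.08 in the treated channel and -0.99 in the hydrated one, which was not well above background in the rehydrated pair. An ethanolamine or choline kinase clone (USD-354), of phospholipid synthesis, was lower by -1.64 ± 0.28, with ratios of -0.62 and 0.12 after slow drying and of 0.72 and 2.04 after rehydration. That difference was -0.02 in the treated channel and 1.62 in the hydrated one, and neither channel of the rehydrated pair was well above background.

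Of 11 clones of amino acid and phenolic metabolism 2 were called higher and 1 lower (median -0.12). Phenylalanine ammonia-lyase (USD-491), the entry enzyme of phenylpropanoid synthesis, had ratios of -0.54 and -0.24 after slow drying and of -1.41 and -1.59 after rehydration. It differed by 1.11 ± 0.26 (adjusted p = 0.0343 by limma, and 0.0849 with the total RNA arrays alone). It was below 0 on all 4 arrays, and further below after rehydration. On the control scale it averaged 1.10 after slow drying and -0.32 after rehydration. A D-amino acid oxidase (USD-638), which deaminates D-amino acids, was higher by 0.82 ± 0.19 (adjusted p = 0.0338 by limma), with 0.31 in the treated and -0.51 in the hydrated channel. It passed neither with the total RNA arrays alone (adjusted p = 0.175) nor on the control scale (adjusted p = 0.0653). The alpha subunit of 2-oxoisovalerate dehydrogenase (USD-54), of branched-chain amino acid breakdown, was called lower by -0.86 ± 0.21, but the treated channel alone stood at 0.04. Its hydrated channel was not well above background in the rehydrated pair, and no fold is given.

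Of 13 kinase, phosphatase and calcium clones 2 were called lower and 0 higher (median -0.20), and 0 on the control scale. A MAP kinase activating protein (USD-469) had ratios of 0.92 and 0.31 after slow drying and of 2.50 and 1.49 after rehydration, so that both groups were above 0 and the rehydrated one higher. It differed by -1.38 ± 0.26 (adjusted p = 0.0166 by limma). A mob1/phocein family protein (USD-133), whose relatives bind protein kinases, differed by -1.04 ± 0.26 (adjusted p = 0.0418). Of 14 transport and vesicle clones none was called (median -0.03), with differences from -0.45 to 0.69. Of 5 transcription and RNA-binding clones none was called either, and all 5 lay above 0, from 0.11 to 0.69. The RING finger clone USD-218 had the highest, 0.69 ± 0.21 (adjusted p = 0.0694).

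**Figure D3:**
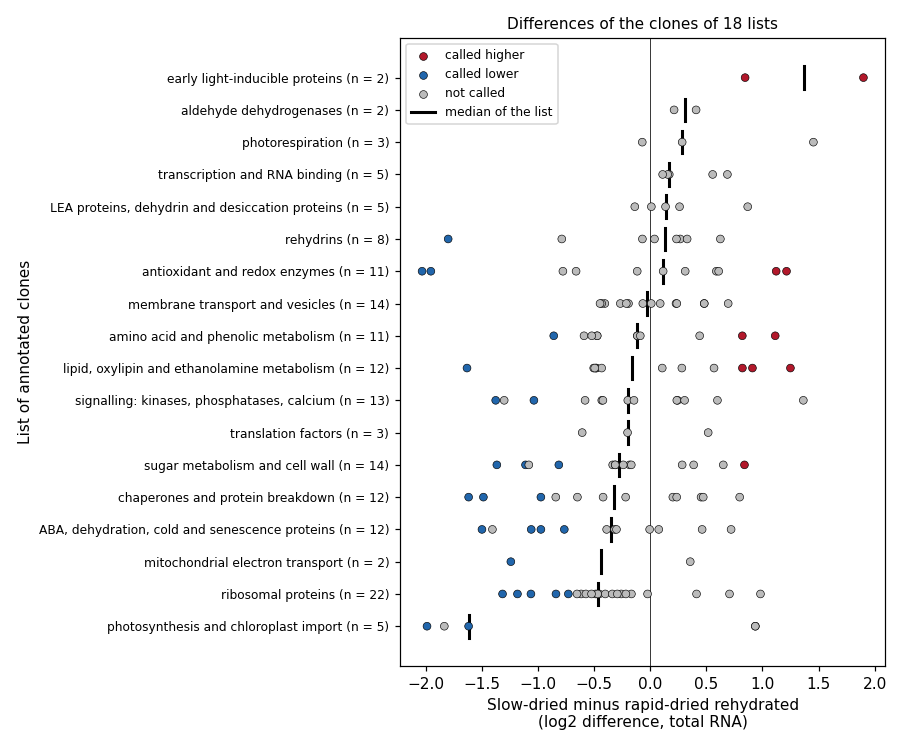
Differences of slow-dried minus rapid-dried rehydrated plants (log2, total RNA) of the annotated clones in 18 lists, 1 point per clone, with the list's median as a bar and the called clones in colour. Both early light-inducible clones are called higher, while the medians of the photosynthesis (-1.62) and ribosomal (-0.46) lists lie lowest.

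Several large differences were in annotated clones of no list. A 16 kDa membrane protein (USD-275) had the largest fall of all annotated clones. Its ratios were -3.49 and -3.98 after slow drying and -1.54 and -1.38 after rehydration, and it differed by -2.28 ± 0.24, or 4.84-fold (adjusted p = 0.00516 by limma). A hypothetical protein (USD-464) had ratios of -0.93 and -0.85 after slow drying and of 0.91 and 1.19 after rehydration. It thus lay below 0 on both slow-dried arrays and above 0 on both rehydrated ones, a difference of -1.94 ± 0.19 (adjusted p = 0.00516 by limma). On the control scale it averaged 0.60 after slow drying and 2.24 after rehydration. It was lower in polysomal RNA too (-1.11, adjusted p = 0.0323). A spherulin-1B precursor clone (USD-256), named after a protein of encysting slime moulds, had ratios of 0.24 and -0.10 after slow drying and of -1.20 and -1.22 after rehydration, a difference of 1.28 ± 0.20 (adjusted p = 0.0110). It was not past the threshold with the total RNA arrays alone (adjusted p = 0.0558). A clone like Arabidopsis At5g01750 (USD-204) was higher by 0.82 ± 0.19 (adjusted p = 0.0325 by limma). It passed neither with the total RNA arrays alone (adjusted p = 0.178) nor on the control scale (adjusted p = 0.0637). A second clone of that annotation, USD-285, differed by 0.12 ± 0.23 and did not pass. A clone like At5g13610 (USD-450) was called lower by -1.72 ± 0.25, but its treated channel alone turned to 1.03 while its hydrated channel stood at 2.75. In its rehydrated pair the hydrated channel was not well above background.

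No annotation is carried by 37 of the 49 higher and 55 of the 87 lower clones, against 559 of all 768. USD-698 had the lowest value of all clones. Its ratios were -1.65 and -1.88 after slow drying and 1.49 and 1.64 after rehydration, a difference of -3.33 ± 0.20, or 10.04-fold (adjusted p = 0.00138 by limma). USD-668 (-1.54 and -1.43 against 1.16 and 1.45), USD-608 (-1.14 and -1.18 against 1.50 and 1.05) and USD-526 (-1.14 and -1.57 against 0.95 and 0.77) showed the same layout. All 4 were below 0 after slow drying and above 0 after rehydration, and all 4 were called lower in polysomal RNA as well, by -1.69 to -2.10. On the control scale USD-698 averaged -0.28 after slow drying, USD-668 0.002, USD-608 0.33 and USD-526 0.13. USD-762 differed by -2.88 ± 0.32, with all 4 arrays below 0, and USD-467 by -2.13 ± 0.24.

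On the higher side USD-125 led, with ratios of 1.16 and 0.57 after slow drying and of -1.57 and -1.47 after rehydration. It differed by 2.39 ± 0.25, or 5.23-fold (adjusted p = 0.00516 by limma). It was above 0 on both slow-dried arrays and below 0 on both rehydrated ones. USD-6 differed by 2.16 ± 0.31, USD-270 by 1.97 ± 0.24, USD-226 by 1.96 ± 0.36 and USD-193 by 1.88 ± 0.43. The hydrated channel of the rehydrated pair was not well above background for USD-6 and USD-226. All 12 of these unannotated clones, USD-74 included, were also called with the total RNA arrays alone and on the control scale. USD-193 was called in 1 of the 4 fits that leave out 1 array, and ran from 1.08 without replicate 2 of the slow-dried plants to 2.68 without their replicate 1. USD-226 was not called without replicate 2 of the slow-dried plants (1.40, adjusted p = 0.0573). In the authors' ratios, median centred, USD-226 stood at 0.60, USD-193 at 0.92 and USD-6 at 0.99, and none passed. Of the 12 annotated higher clones, 1 (ELIPb) was called with the total RNA arrays alone, and of the 32 annotated lower clones 14 were.

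Because each value is a ratio, a difference can lie in the treated or in the hydrated channel of the arrays. The difference was larger in size in the hydrated than in the treated channel in 7 of the 49 higher and 16 of the 87 lower clones, against 263 of all 768. In the clones called higher the median difference was 1.12 in the treated channel and 0.00 in the hydrated one, and in the clones called lower -1.32 and -0.01. The treated channel had the same sign as the call in 45 of 49 and 83 of 87 clones, and the same sign as the difference in 588 of all 768. The treated channel is part of the difference that was called, so this agreement is partly built in. Comparing the hydrated channels of the 2 groups, which hold the same kind of RNA, called 14 clones higher and 4 lower. Of the clones called lower in the main comparison, 2 were among the 14, USD-450 and the unannotated USD-362, named here after their values were seen.

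**Figure D4:**
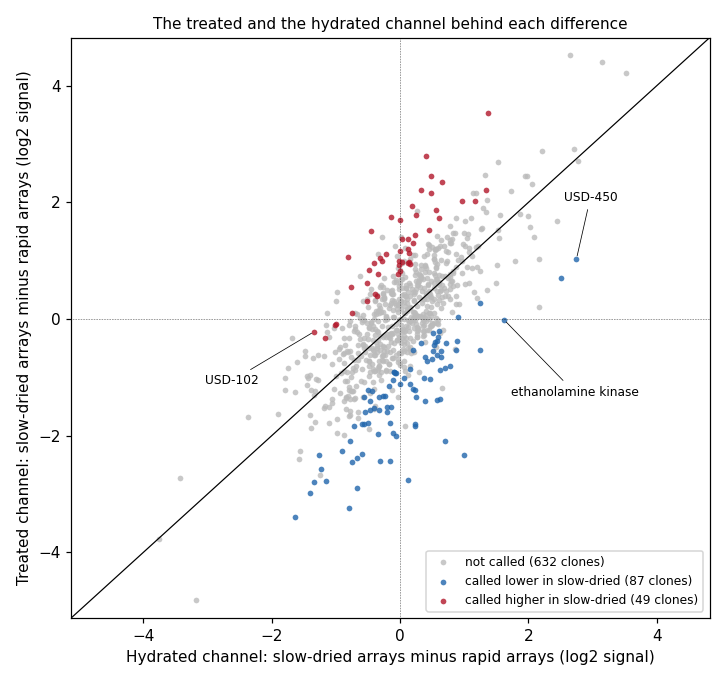
Each point is 1 of 768 clones, with the difference between slow-dried and rapid-dried rehydrated arrays in log2 signal of the hydrated channel on the horizontal axis and of the treated channel on the vertical axis, and the distance from the line is the difference of the ratios. On the horizontal axis the median is 0.00 for clones called higher (SD 0.60) and -0.01 for those called lower (SD 0.76). The SD over all clones is 0.77, and USD-450 lies to the right at 2.75.

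Clones that share an annotation can be set side by side. In 21 families of 2 or 3 clones, 46 clones in all, the members' differences lay 0.50 apart in the median and at most 2.22, and in 17 of the 21 families they lay within a log2 of 1. No family had all its members called in the same direction and none had members called in opposite directions, with a called member in 9 families. The widest gaps were between the 2 clones of ERD4 (-1.50 and 0.72) and the 2 of ribosomal protein L5 (-1.19 and 0.98). At the other end, the 2 trehalase clones lay 0.03 apart. The quartiles of all 768 differences were -0.50 and 0.48, and unrelated clones were not compared in this way. Closeness within a family is therefore no check on the values. Whether clones of a family carry the same transcript was not tested.

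The same contrast in polysomal RNA, RNA isolated together with ribosomes that share a transcript, came from separate RNA samples, with 2 arrays per treatment. In it 2 clones were called higher (0.26%) and 28 lower (3.65%), and an unadjusted p under 0.05 held for 83 and 99. On the control scale 0 passed in either direction. The polysomal arrays' own spread is narrower than the pooled one, and with these arrays alone 167 clones were called higher (21.7%) and 173 lower (22.5%). Array weights gave 113 and 130. Of the 87 clones lower in total RNA, 16 were called lower in polysomal RNA and 68 lay below 0 there (78.2%, against 47.8% of all clones). Of the 49 clones higher in total RNA, 0 were called in polysomal RNA and 43 lay above 0 (87.8%, against 52.2% of all clones). With the polysomal arrays alone, 48 of the 87 were called lower and 6 higher, and 23 of the 49 were called higher and 2 lower. The 16 include glutathione S-transferase 3, Tr-416, carbonic anhydrase, Hsp70 and USD-464, and the other 11 carry no annotation. Across the 768 clones the total and polysomal differences correlated at r = 0.47, a description over clones measured on the same array design. The title of 1 rehydrated polysomal array (slide 85) names the other treatment, and the array was used by its source name.

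A test of the total difference minus the polysomal difference called 1 clone higher (0.13%) and 1 lower (0.13%), both without annotation, with 147 clones at an unadjusted p under 0.05. USD-74 had ratios of 1.72 and 1.77 in slow-dried and of 0.00 and -0.30 in rehydrated total RNA, a difference of 1.90 ± 0.20. In polysomal RNA its difference was -0.76, which did not pass (adjusted p = 0.105 by limma). USD-135 had ratios of 1.23 and 1.39 in slow-dried and of 2.94 and 2.84 in rehydrated total RNA, a difference of -1.58 ± 0.19, against 0.60 in polysomal RNA. In both clones the arrays of a group lay close together and the groups apart, in opposite directions in the 2 fractions. For lipoxygenase-1, whose difference was 1.25 in total and -0.18 in polysomal RNA, the total minus polysomal value was 1.43 ± 0.26 and did not pass (adjusted p = 0.0770).

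**Figure D5:**
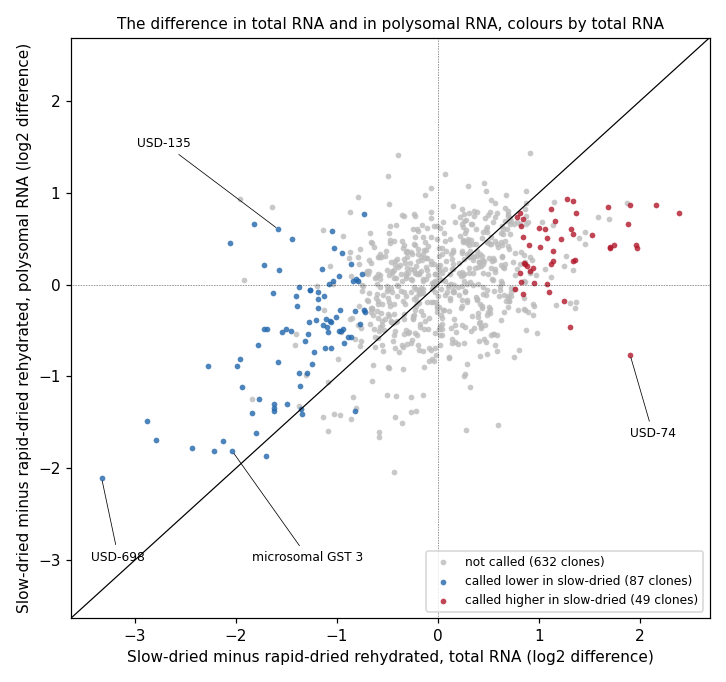
Each point is 1 of 768 clones, with the slow-dried minus rapid-dried rehydrated difference (log2) in total RNA on the horizontal axis and in polysomal RNA on the vertical axis, coloured by the call in total RNA. Of the clones called lower 68 of 87 also lie below 0 in polysomal RNA, and USD-74 and USD-135 lie on opposite sides of 0 in the 2 fractions.

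Some annotated clones stood near 0 with small errors. A senescence/dehydration-associated protein (USD-604) differed by -0.01 ± 0.19, an ABC transporter (USD-745) by 0.01 ± 0.20, a MATE efflux protein (USD-126) by 0.09 ± 0.21, and the enzyme that opens the shikimate pathway (USD-565) by -0.12 ± 0.20. Their 4 arrays lay close together, and USD-745 was low in both groups, between -1.58 and -2.01. At the threshold, L35 (adjusted p = 0.0475), the unannotated USD-754 (adjusted p = 0.0481) and glyceraldehyde-3-phosphate dehydrogenase USD-462 (adjusted p = 0.0493) were just inside, and USD-176, annotated only as an unknown protein (0.71, adjusted p = 0.0501), just outside.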

How the data were processed

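The deposited scanner files hold, per the file headers, the intensity of each spot and of its local background in each channel, not normalized. A second deposited table gives 1 ratio of treated to hydrated signal for each clone on each array, made by the authors, and was used as an alternative. What the spot flags mean and which scanner was used is not stated in the sources.

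Here both channels (mean signal, median background) were corrected with normexp (offset 50), log2 ratios were normalized by global loess within each array (span 0.3, 4 iterations), and the 3 spots of a clone were averaged. Loess sets the typical clone at 0, so each value is relative to it. One model over all 8 arrays, with 4 group coefficients and a dye term, was fitted with limma 3.58.1 in R 4.3.3 (3 residual degrees of freedom per clone, 6.41 in total). P-values were two-sided and adjusted by the Benjamini-Hochberg method over 768 clones. A clone was well above background when its signal exceeded the background by 2 background SD, and "not well above background" means on neither array of a group. Where only 1 side of a ratio was short, a fold is a bound. The number of arrays limits the precision. The script was tested on simulated data.

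The comparison, the lists (18, by words in the annotation) and the families were chosen with earlier results of these data known, and the lists were revised after some values had been seen. By rule the text names, in each direction, up to 15 annotated clones and 6 without annotation with the largest called differences, up to 6 members of each list, every control clone, and 5 annotated clones near 0. For the clones with the largest called differences the rule also required both slow-dried arrays on the same side of both rehydrated ones. That separation is therefore not a result about them. Alternatives were another scale, background, normalization, spot summary, array set or table, and leaving out each array. The files give no clone sequences and none is printed.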

Additional observations from a re-analysis of the deposited data

Results flagged for a closer look

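USD-74 and USD-135 were marked because the difference between slow-dried and rapid-dried rehydrated plants itself differed between total and polysomal RNA, by limma's test of that difference over all 768 clones. In USD-74 the total minus polysomal value was 2.662 (adjusted p = 0.0460), and in USD-135 it was -2.181 (adjusted p = 0.0491). In both, the 2 arrays of every group agreed closely and the differences had opposite signs in the 2 fractions. The polysomal difference of USD-74 was not called by itself. In total RNA each passed with the total RNA arrays alone (adjusted p = 0.0223 for USD-74 and 0.0333 for USD-135). The hydrated channel was not well above background on the slow-dried total arrays for USD-74 and on the rehydrated ones for USD-135. As a bound, USD-74 was at least 3.31-fold higher in slow-dried total RNA, and no fold is given for USD-135. Neither test passed on the control scale. The groups hold 2 arrays each, too few to look for single arrays that stand apart.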

How the results depend on the processing

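In total RNA the 49 higher and 87 lower clones became 56 and 33 on the control scale, 19 and 40 with the total RNA arrays alone, 15 and 25 with array weights, 81 and 90 with the treated channels alone, and 0 and 0 in the authors' ratios as deposited or median centred. The other settings gave 35 to 72 higher and 68 to 94 lower clones. Without 1 array the counts ran from 21 to 62 higher and from 39 to 83 lower, lowest without replicate 2 of the slow-dried plants. A lone array was then assumed to vary like the other groups. In polysomal RNA (2 higher, 28 lower) both counts were 0 on the control scale, with treated channels alone and without any 1 polysomal array. The authors' ratios gave 0 higher and 1 lower, leaving out dim clones 4 higher, no dye term 1 higher, array weights 113 and 130, and the polysomal arrays alone 167 and 173. For total minus polysomal (1 and 1), the counts were 0 and 0 on the control scale, 2 and 11 without dim clones, 3 and 7 without a dye term, and 12 and 9 with treated channels alone. The higher count was 0 with no background correction. The lower count was 2 with no loess, and 0 in the authors' ratios, with background subtracted, with flagged spots left out and with the signal median. Without 1 array they ran from 0 to 1 and from 0 to 2. Of 959 values of the 52 named called clones under the alternatives, 621 kept direction and call, 334 kept direction only, and 4 reversed, all with treated channels alone: USD-102 (-0.22), USD-729 (-0.082), USD-450 (1.03) and USD-54 (0.041). The cause was not tested. Print-tip loess was not run, since the files used give no blocks. The array weights, background mean, signal median and left-out polysomal arrays were chosen after seeing the data. No paired analysis was possible because the labels number no replicates across groups, and the dye orientation is already in the model.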

Other observations

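Other annotated clones called lower in slow-dried total RNA, chosen after their values were seen, were a zinc-binding alcohol dehydrogenase (USD-312, -1.27 ± 0.24), a hypothetical membrane protein (USD-367, -1.19 ± 0.21), a protein with an endonuclease/exonuclease/phosphatase annotation (USD-119, -1.08 ± 0.24) and an AWPM-19-like membrane protein (USD-114, -0.80 ± 0.19). USD-119 was the lowest of these over hydrated tissue, with ratios of -2.70 and -3.38 after slow drying and of -1.77 and -2.15 after rehydration. All 4 stood between -0.08 and 0.04 in polysomal RNA. A second AWPM-19-like clone, USD-113, stood at -0.50 ± 0.19 and did not pass. Of the clones called lower in polysomal RNA alone, 12-oxophytodienoate reductase (USD-637, of oxylipin synthesis), a serine carboxypeptidase (USD-186), a protein phosphatase 2C (USD-542) and the moss's calmodulin-like domain protein kinase (Tr-cpk) carry an annotation. Tr-cpk stood at 0.60 in total and at -1.53 in polysomal RNA.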
